A study of Mus musculus with 18 samples.

Results

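The interferon response genes described here are 43 of the 40840 genes counted in these livers, taken by gene symbol from a list of known interferon targets. The list was chosen with earlier results of these data known, so shares of members set beside those of all genes are descriptions. They comprise 33 antiviral genes typical of type I interferon, 8 GTPases typical of interferon-gamma, and Irf1 and Tap1, which either interferon induces. Liver RNA was sequenced from ovariectomized female C57BL/6 mice in 2 models of fatty liver, and each group had 3 libraries. The diet-induced obese (DIO) mice were wild type and ate a diet with 45% of energy from fat and 0.2% cholesterol, whereas the ob/ob mice lack leptin and ate normal diet. In each model 1 group received PaPE-1, a pathway preferential estrogen, at 300 µg per kg per day, 1 received estradiol (E2) at 5 µg per kg per day, and 1 received vehicle, all for 6 weeks from osmotic minipumps. The doses of the ligands differ, and all animals lack ovaries. The protocol in the labels speaks of 3 replicates extracted and 2 samples sequenced per group, while 3 libraries per group were analysed, so p-values measure the spread between these libraries. The models lie in separate tables, and diet, genotype and any difference in sequencing cannot be told apart.

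Type I interferons, made when a cell detects foreign or misplaced nucleic acid, act on a receptor that sends the complex ISGF3, which holds STAT2 and IRF9, to the nucleus. ISGF3 binds the interferon-stimulated response element (ISRE) and turns on effectors that cut, sequester or block viral RNA and protein. Interferon-gamma, made mainly by T and NK cells, acts through a receptor of its own on the gamma-activated site (GAS) and induces IRF1, antigen presentation and the GTPases that attack vacuoles of intracellular microbes. In liver, hepatocytes, Kupffer cells and endothelial cells can each carry these programs.

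All 43 members passed the filter on low counts in both models, in libraries of 16651616 to 21703791 counts in DIO liver and 10470665 to 17021370 counts in ob/ob liver. Levels are CPM, counts scaled to library size with TMM factors, and levels between genes are given per transcript length as TPM. Bst2, which tethers budding virus to the cell surface, had the highest mean per length in both models, at 465 TPM (379 to 632 over 9 libraries) in DIO liver and 318 TPM (278 to 358) in ob/ob liver. Iigp1, an immunity-related GTPase, followed in DIO liver at 231 TPM (146 to 375) and averaged 68.1 TPM (55.5 to 89.0) in ob/ob liver. Ifi27, an interferon-inducible mitochondrial protein, averaged 116 TPM (94.0 to 146) in DIO liver and 85.1 TPM (58.3 to 118) in ob/ob liver. The ranges of Ifi27 and Iigp1 overlapped in ob/ob liver and met end to end in DIO liver, both at 146 TPM. The lowest means were those of Oas3 in DIO liver (1.27 TPM) and Oas1g in ob/ob liver (1.17 TPM). Oas1g rested on 7 to 33 counts per ob/ob library, so its changes are measured least precisely. The members lie on many chromosomes, with 8 on chromosome 11 and 6 each on chromosomes 5 and 16. Transcripts of some members share 100-base windows with a relative, so their counts are less certain: 40.9% of the windows of Oas1a occur in Oas1g and 31.7% of those of Ifit3 in Ifit3b. Ifi27 and Ifi27l2a overlap on opposite strands of chromosome 12, and Dtx3l and Parp9 on chromosome 16, in a count that used strand.

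The promoters of the members share the elements that the grouping did not use. RefSeq windows of 250 bases before to 50 bases after the start, on build GRCm38.p6, were found for 31 of the 43 members. An ISRE was searched as 2 copies of GAAA with 2 bases between them, and a GAS as TTC and GAA with 3 bases between them, on either strand. An ISRE lay in 18 of 31 members (58.1%), against 3.99% of the 27025 genes with a window. By class, it lay in 12 of 22 type I antiviral members and 6 of 7 GTPases, and in neither Irf1 nor Tap1. A GAS lay in 9 of 31 members (29.0%), against 9.55% of all genes, and both elements in 6 members (19.4%), against 0.614% of all genes. Of the 6 members with both, 3 were GTPases. The following stretches, 5′ to 3′ on the strand of the gene with the elements in capitals, come from members whose levels are described later. Isg15 (chr4:156200835-156200936, minus strand) has 3 overlapping ISREs, and Ifit1 (chr19:34640745-34640853, plus strand) and Ifit3 (chr19:34583333-34583456, plus strand) have 2 each. Igtp (chr11:58199471-58199571, plus strand) has a GAS followed closely by an ISRE, and Irf1 (chr11:53769884-53769972, plus strand) a GAS alone.
Isg15: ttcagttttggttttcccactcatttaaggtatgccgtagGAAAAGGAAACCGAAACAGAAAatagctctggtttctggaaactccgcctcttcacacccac
Ifit1: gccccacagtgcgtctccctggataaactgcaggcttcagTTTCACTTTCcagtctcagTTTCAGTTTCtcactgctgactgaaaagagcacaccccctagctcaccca
Ifit3: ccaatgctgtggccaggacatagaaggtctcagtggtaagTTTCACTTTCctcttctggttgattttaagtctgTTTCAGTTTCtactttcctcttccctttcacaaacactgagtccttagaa
Igtp: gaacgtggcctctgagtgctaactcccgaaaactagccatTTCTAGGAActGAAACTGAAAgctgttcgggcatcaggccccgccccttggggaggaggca
Irf1: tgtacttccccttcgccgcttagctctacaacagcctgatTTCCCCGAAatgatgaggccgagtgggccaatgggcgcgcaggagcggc
The stretch of Ifit3b (chr19:34607729-34607852, plus strand) is identical to that of Ifit3. In these windows the ISREs of Isg15 began 78, 72 and 66 bases before the start, and the GAS and ISRE of Igtp 45 and 34 bases before it. A match describes the letters only.

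**Figure D1:**
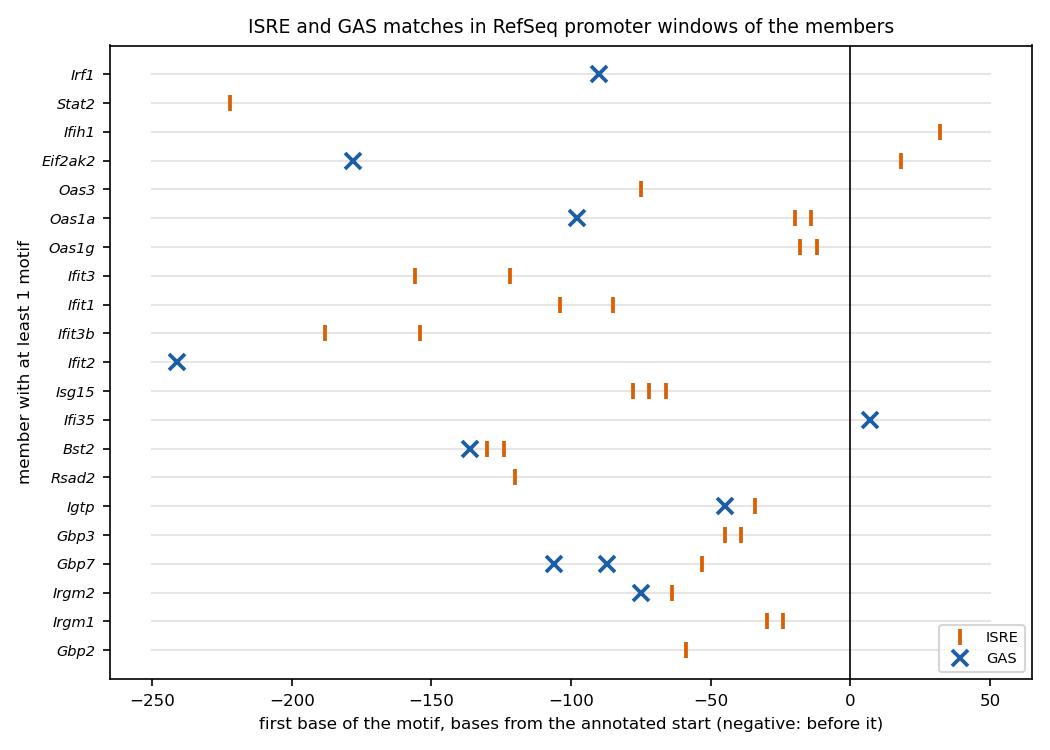
Positions of ISRE and GAS matches in the RefSeq promoter windows. The x axis gives the first base of each match in bases from the annotated start, and each line on the y axis is 1 member with at least 1 match. Igtp and Irgm2 have a GAS just before an ISRE, starting 45 and 34 bases and 75 and 64 bases before the start, and Irf1 has a GAS 90 bases before it.

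In ob/ob liver most antiviral members were higher with E2 than with vehicle, by 1.3- to 2.7-fold for those that passed, with Irf7, Rtp4 and Ifit3 at the lowest p. Of the 43 members, 20 were higher and 0 lower with E2 than with vehicle (edgeR quasi-likelihood test, adjusted p under 0.05), that is 46.5% of members, against 9.81% of all 13433 genes tested that were higher and 12.3% that were lower. The median log2 difference of the members was 0.58, against 0.01 over all genes tested. The 3 E2 and 3 vehicle libraries did not overlap, with E2 higher, for 22 members (51.2%), against 20.7% of all genes. By class, 19 of 33 type I antiviral members rose (median 0.65), 1 of the 2 shared members rose (Tap1), and none of the 8 GTPases passed (median 0.35). DESeq2 and limma voom each called 23 members higher, beside 1399 and 1325 of all 13433 genes.

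Among the transcription factors, Irf7 and Irf9 rose and Irf1 and Stat2 did not pass. Irf7 (chr7:140843096-140846412, GRCm39, minus strand), the factor that amplifies type I interferon, measured 52.2, 67.4 and 71.3 CPM with E2 and 37.0, 36.5 and 29.0 CPM with vehicle. Every E2 library lay above every vehicle library, and the log2 fold change was 0.90 ± 0.15 (SE, n = 3 per group, edgeR adjusted p = 0.00314). Irf9, the DNA-binding part of ISGF3, measured 31.9, 32.2 and 37.9 CPM with E2 and 25.6, 22.7 and 19.9 CPM with vehicle. The groups of Irf9 did not overlap either, at a log2 fold change of 0.58 ± 0.13 (edgeR adjusted p = 0.0107). Irf1 (chr11:53660841-53669200, GRCm39), whose vehicle libraries ran from 18.7 to 30.2 CPM, measured 29.9 to 36.4 CPM with E2. Irf1 had a log2 difference of 0.49 and Stat2 one of 0.40, with edgeR adjusted p of 0.0536 and 0.0882.

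Of the RNA-handling families, 3 of 6 OAS members rose, 2 of 4 IFIT members and 2 of 4 sensors. Oas2 (chr5:120868398-120887949, GRCm39, minus strand), which makes the 2-5A messenger that activates RNase L, measured 3.96, 4.92 and 7.76 CPM with E2 and 1.88, 3.14 and 1.30 CPM with vehicle. Its log2 fold change of 1.43 ± 0.34 was the highest among the members (edgeR adjusted p = 0.0120), without overlap of the groups. Ifit3, which stabilizes IFIT complexes on viral RNA, measured 19.5, 19.1 and 22.1 CPM with E2 and 12.6, 13.4 and 8.45 CPM with vehicle. The E2 libraries of Ifit3 lay close together and above all vehicle libraries, at a log2 fold change of 0.83 ± 0.16 (edgeR adjusted p = 0.00556). Ifit1 (chr19:34618289-34627409, GRCm39), which binds capped RNA lacking a self mark, measured 14.2, 15.2 and 18.5 CPM with E2 and 10.7, 10.4 and 9.51 CPM with vehicle. Ifit1 rose by 0.65 on the log2 scale (edgeR adjusted p = 0.0151), and Oas1a and Oasl1 rose by 0.91 and 0.38. Among the sensors, Zbp1, which detects Z-form nucleic acid, and Dhx58 rose by 0.90 and 0.72. Ifih1, the MDA5 sensor, and Eif2ak2, the kinase PKR, had log2 differences of -0.07 and -0.33 and did not pass, nor did Ifit2 at -0.48.

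Of the other antiviral effectors, 9 of 11 rose. Rtp4 (chr16:23338976-23432972, GRCm39), an interferon-induced protein with antiviral activity, measured 24.1, 31.2 and 30.1 CPM with E2 and 16.8, 18.6 and 14.3 CPM with vehicle. Rtp4 had no overlap and a log2 fold change of 0.79 ± 0.13 (edgeR adjusted p = 0.00364). Ifi27 measured 63.0, 86.1 and 79.6 CPM with E2 and 42.9, 51.7 and 45.1 CPM with vehicle, a log2 fold change of 0.71 ± 0.17 (edgeR adjusted p = 0.0116). Xaf1, a pro-apoptotic interferon target, measured 7.92, 9.13 and 10.8 CPM with E2 and 6.10, 5.41 and 3.96 CPM with vehicle, a log2 fold change of 0.85 ± 0.20 (edgeR adjusted p = 0.0119). All E2 libraries of both genes exceeded all vehicle libraries. Transcripts of the dynamin-like GTPases Mx2 and Mx1 rose by 1.16 and 1.09, and those of Ifi44, Cmpk2, Ifi35 and Bst2 by 1.01, 0.65, 0.48 and 0.42. Ifi27l2a had a log2 difference of 0.94 and Rsad2, the radical SAM enzyme viperin, one of 0.26, and neither passed the edgeR test. Ifi27l2a measured 17.2, 17.4 and 21.6 CPM with E2 and 5.90, 17.8 and 6.2 CPM with vehicle. Its vehicle replicate 2 lay within the E2 range, and DESeq2 and limma voom called the gene higher (adjusted p = 0.0244 and 0.0165). Of the 5 members that act in ISG15 conjugation or ADP-ribosylation, 1 rose. Isg15 (chr4:156283881-156285275, GRCm39, minus strand), the ubiquitin-like modifier, measured 11.9, 10.9 and 9.43 CPM with E2 and 6.49, 7.59 and 4.85 CPM with vehicle. The lowest E2 library of Isg15 exceeded the highest vehicle library, and the log2 fold change was 0.78 ± 0.21 (edgeR adjusted p = 0.0184). Usp18, Parp14, Parp9 and Dtx3l had differences of 0.30, 0.29, 0.02 and -0.08 and did not pass. Tap1, which carries peptides into the endoplasmic reticulum for MHC class I, measured 31.5, 39.1 and 34.6 CPM with E2 and 28.3, 20.8 and 19.97 CPM with vehicle, a log2 fold change of 0.60 ± 0.14 (edgeR adjusted p = 0.0114).

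**Figure D2:**
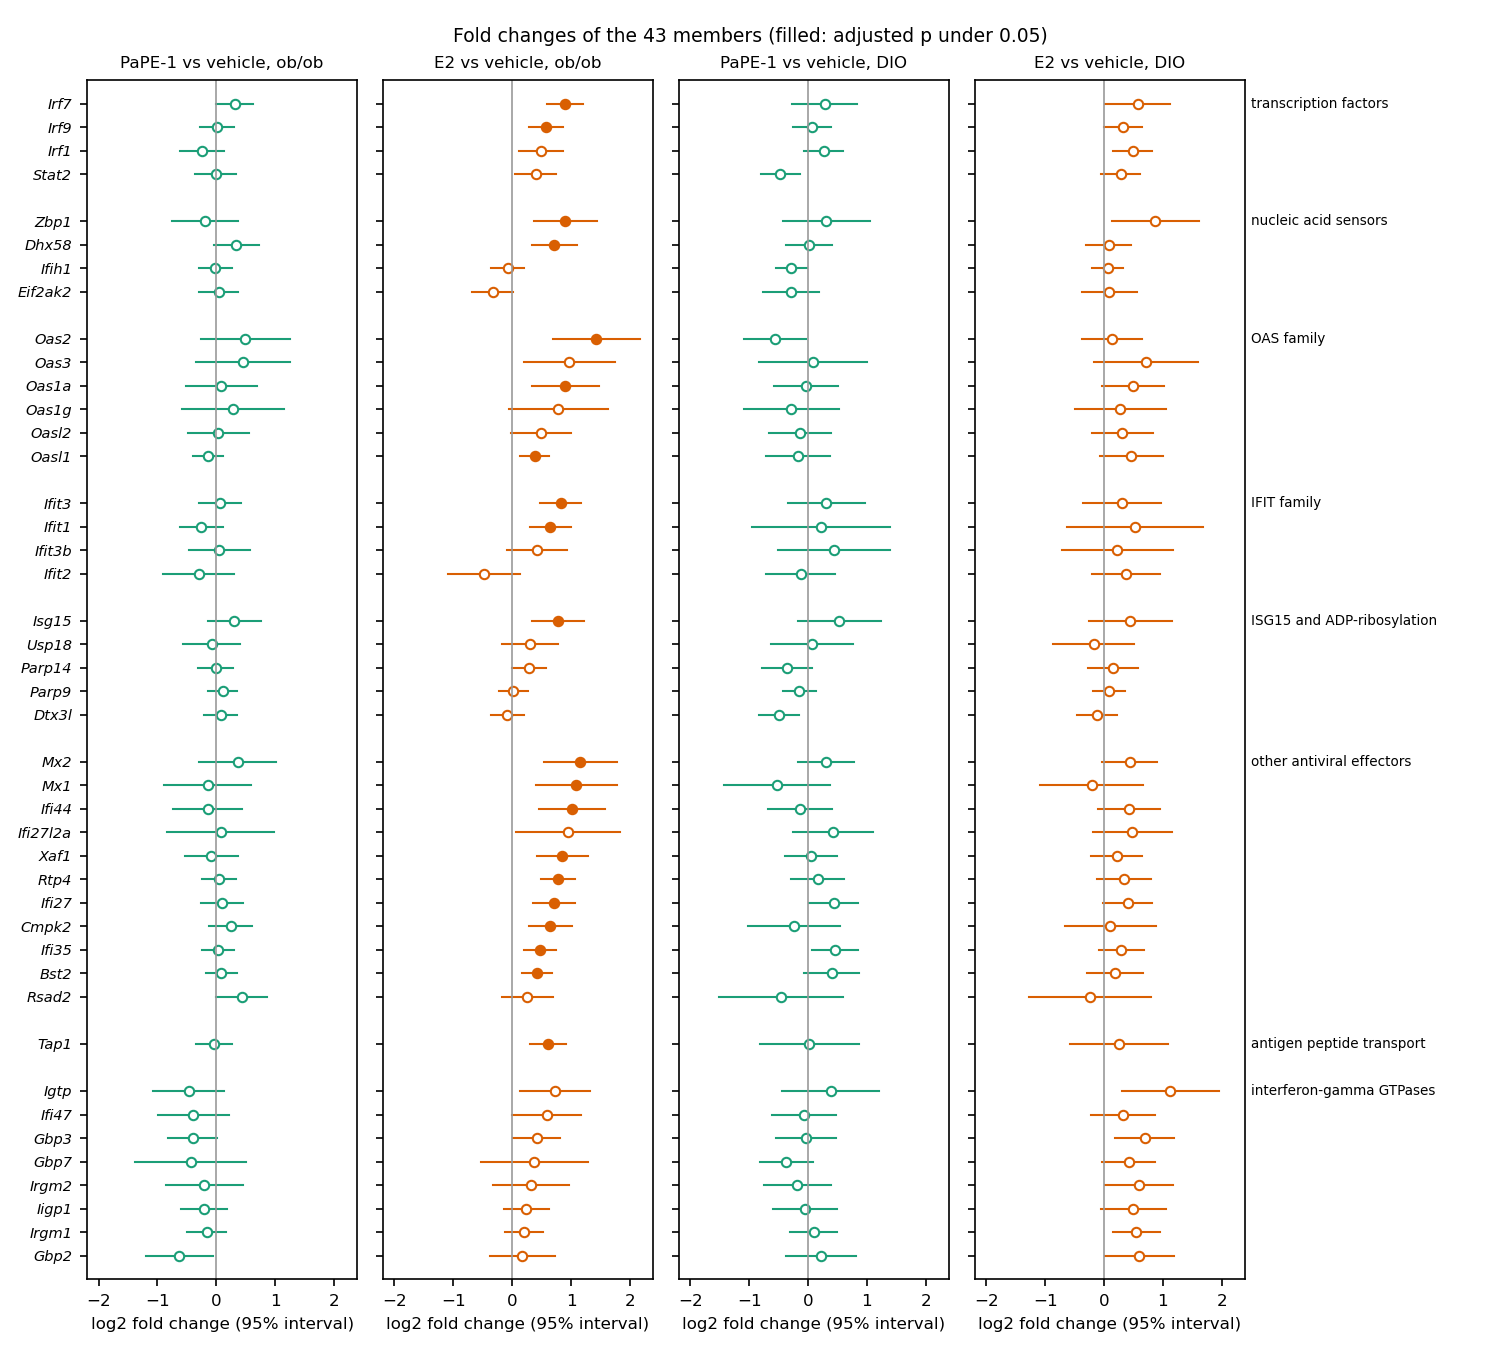
Log2 fold changes of all 43 members (x axis, with 95% intervals) for PaPE-1 and for E2 against vehicle in ob/ob and DIO liver, ordered by role. Filled points passed the edgeR test at an adjusted p under 0.05. The panel of E2 in ob/ob liver holds all 20 filled points, and none of them is a GTPase.

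The number of calls depended on single libraries. Without E2 replicate 2, 6 members were higher, without vehicle replicate 3, 7 were higher and Ifit2 was lower, and without E2 replicate 3, 10 were higher. Without E2 replicate 1, 21 were higher and Eif2ak2 was lower. Over all genes, 1318 of 13433 were higher with every library in the fit. The number was 344 of 13645 without E2 replicate 2 and 708 of 13707 without vehicle replicate 3. It was 634 of 13650 without E2 replicate 3 and 1365 of 13694 without E2 replicate 1. Irf7, Irf9, Ifit3 and Rtp4 were called with each of the 6 libraries left out in turn and under the other 7 alternatives.

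As a class, the interferon-gamma GTPases differed from the antiviral members in how the vehicle libraries lay. Igtp (chr11:58090382-58098418, GRCm39), also named Irgm3, measured 61.6, 58.3 and 49.97 CPM with E2 and 52.2, 23.6 and 26.8 CPM with vehicle. Gbp2 (chr3:142326424-142343769, GRCm39), a guanylate-binding protein, measured 13.4, 17.7 and 15.5 CPM with E2 and 20.5, 8.29 and 12.3 CPM with vehicle. For both genes vehicle replicate 1 stood in or above the E2 range, and the log2 differences of 0.72 and 0.17 did not pass (edgeR adjusted p = 0.0777 and 0.660). The class score, the mean log2 CPM of a class relative to the vehicle mean, was 0.45 ± 0.12 with E2 and 0.00 ± 0.53 with vehicle for the GTPases (SD, n = 3), and 0.57 ± 0.12 with E2 and 0.00 ± 0.19 with vehicle for the antiviral class. Vehicle replicate 1 scored 0.60 for the GTPases, and its scores for T and NK cell markers (0.73) and B and plasma cell markers (0.98) were also the highest of the vehicle libraries. Both marker lists lay at low levels, at 5.41 to 15.1 and 1.57 to 5.32 summed CPM with vehicle. The part of these cells in the GTPase levels was not tested. Without vehicle replicate 1, E2 was higher for 25 members, 17 of them among the 20, and 6 of the 8 GTPases passed, with edgeR adjusted p of 0.00148 for Igtp, 0.00470 for Irgm2, 0.0121 for Ifi47, 0.0257 for Irgm1, 0.0358 for Gbp7 and 0.0447 for Gbp3. The GTPase median was then 0.71, Irf1 and Stat2 passed, and Mx1, Oas1a and Oasl1 did not. Of all genes, 967 of 13729 were higher in that fit. Leaving out vehicle replicate 2 instead gave a GTPase median of 0.11, and no GTPase passed. Of all genes, 829 of 13660 were then higher.

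**Figure D3:**
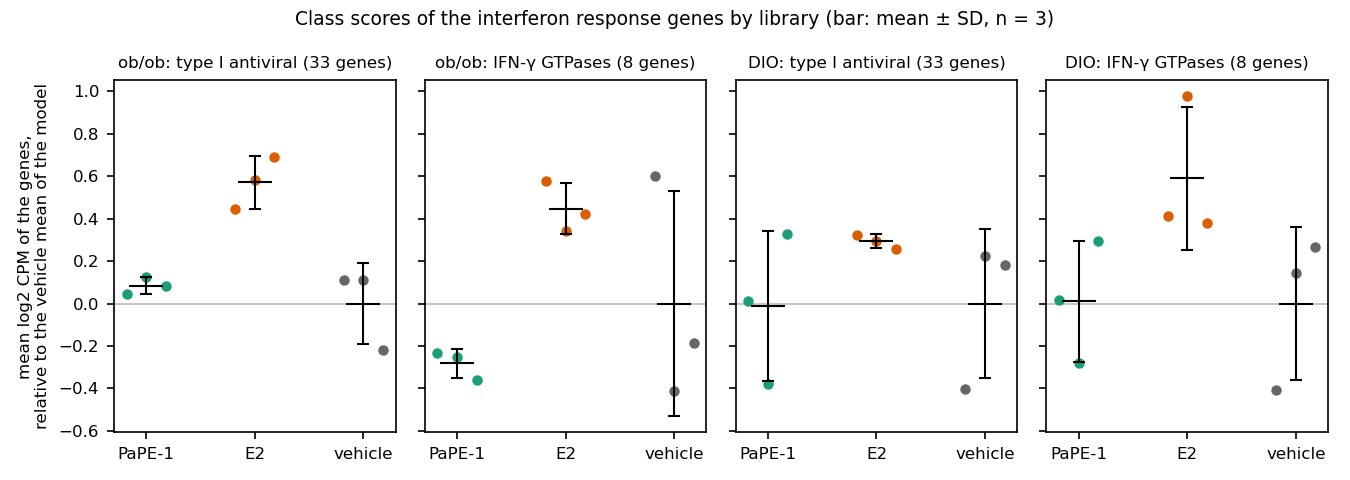
Class scores by library: the y axis is the mean log2 CPM of the class relative to the vehicle mean of that model, points are libraries, and bars give the mean ± SD of 3. The antiviral scores of ob/ob liver with E2 (0.44 to 0.69) lie above those with vehicle (-0.22 to 0.11), while 1 vehicle library reaches 0.60 among the GTPases.

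Between PaPE-1 and vehicle, no member passed the test in ob/ob liver. The count was 0 of 43 (edgeR, adjusted p under 0.05), where 0% of all genes were higher and 0% lower, and DESeq2 and limma voom also called 0 members. At an unadjusted p under 0.05, 1 member was higher and 1 lower, 2.33% each, against 0.998% and 1.65% of all genes. The median of the members was 0.01. The 95% interval lay within a 2-fold change for 36 of 43 members, the others being Oas1g, Oas2, Oas3, Mx2, Gbp2, Gbp7 and Igtp. Gbp2 measured 9.12, 8.87 and 8.83 CPM with PaPE-1 and 20.5, 8.29 and 12.3 CPM with vehicle, a log2 difference of -0.63 (95% interval -1.19 to -0.06, edgeR unadjusted p = 0.0339, adjusted p = 1). Rsad2 measured 18.2, 10.4 and 11.8 CPM with PaPE-1 and 8.43, 9.77 and 11.6 CPM with vehicle, a log2 difference of 0.43 (edgeR unadjusted p = 0.0489, adjusted p = 1). Both pairs of groups overlapped. Irf7 measured 44.8, 45.9 and 36.4 CPM with PaPE-1, which overlapped vehicle, and Gbp3 measured 7.38, 6.37 and 6.81 CPM with PaPE-1 and 11.4, 8.03 and 7.62 CPM with vehicle. Gbp3 did not overlap between the groups, at an edgeR adjusted p of 1. All 8 GTPases had values below 0 (median -0.39). Without vehicle replicate 1 this median was -0.01.

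Set against E2 within the ob/ob model, antiviral and GTPase members were lower with PaPE-1. With PaPE-1, 18 members were lower and 0 higher than with E2 (edgeR, adjusted p under 0.05), 41.9% of members, against 7.45% of all genes that were lower and 10% that were higher. The groups did not overlap, with PaPE-1 lower, for 27 members (62.8%), against 18.2% of all genes. The median log2 difference was -0.52, with -0.50 for the antiviral class, 13 of 33 of which were lower, and -0.80 for the GTPases, 3 of 8 of which were lower. DESeq2 and limma voom called 21 members lower each, beside 1091 and 1075 of all 13433 genes. This comparison uses the same E2 libraries as that of E2 with vehicle, so it is no independent evidence of the direction.

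Rtp4 measured 17.1, 17.4 and 16.6 CPM with PaPE-1, against 24.1, 31.2 and 30.1 CPM with E2, a log2 fold change of -0.74 ± 0.13 (edgeR adjusted p = 0.00512). Ifit1 measured 7.11, 8.04 and 10.4 CPM with PaPE-1, at -0.90 ± 0.17 (edgeR adjusted p = 0.00537), and Ifit3 11.6, 11.98 and 12.2 CPM, at -0.76 ± 0.16 (edgeR adjusted p = 0.00879). The PaPE-1 libraries of Rtp4 and Ifit3 lay within 1 CPM of each other and below every E2 library. Xaf1 measured 4.23, 4.78 and 5.54 CPM with PaPE-1, at -0.93 ± 0.20, and Tap1 22.1, 24.1 and 21.3 CPM, at -0.64 ± 0.14. Oasl1 measured 16.9, 17.6 and 18.1 CPM with PaPE-1 and 22.1, 27.4 and 25.8 CPM with E2, at -0.52 ± 0.12. Ifi44 measured 2.35, 3.41 and 4.10 CPM with PaPE-1 and 8.78, 7.29 and 6.09 CPM with E2, at -1.16 ± 0.26. Zbp1 measured 5.84, 4.70 and 3.40 CPM with PaPE-1 and 10.4, 9.46 and 9.90 CPM with E2, at -1.10 ± 0.25. None of these genes had a PaPE-1 library at or above an E2 library.

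Among the GTPases, Igtp measured 22.2, 28.5 and 23.7 CPM with PaPE-1, against 61.6, 58.3 and 49.97 CPM with E2, a log2 fold change of -1.19 ± 0.27 (edgeR adjusted p = 0.0179). Gbp3 and Ifi47 were also lower, at -0.81 and -0.98 (edgeR adjusted p = 0.0133 and 0.0336), and Gbp2, at -0.79, did not pass (edgeR adjusted p = 0.0543). No GTPase overlapped between PaPE-1 and E2. Irf1 measured 20.8, 21.8 and 16.5 CPM with PaPE-1 and 31.6, 36.4 and 29.9 CPM with E2, at -0.73 (edgeR adjusted p = 0.0134), and Irf7 was lower at -0.59. Isg15 measured 6.64, 9.93 and 6.75 CPM with PaPE-1, so that its second library lay within the E2 range, and it did not pass at -0.47 (edgeR adjusted p = 0.117). The calls ran from 6 without E2 replicate 2 to 20 without E2 replicate 1, with 9 without PaPE-1 replicate 3 and 11 without E2 replicate 3. Of all genes, 199 of 13645, 1094 of 13694, 348 of 13707 and 445 of 13650 were lower in these fits, in that order. Ifit1, Ifit3, Rtp4 and Xaf1 were called with each library left out in turn. Of the GTPases, 0 passed without PaPE-1 replicate 3, 1 without E2 replicate 2 and 7 when the fit held only the compared groups.

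**Figure D4:**
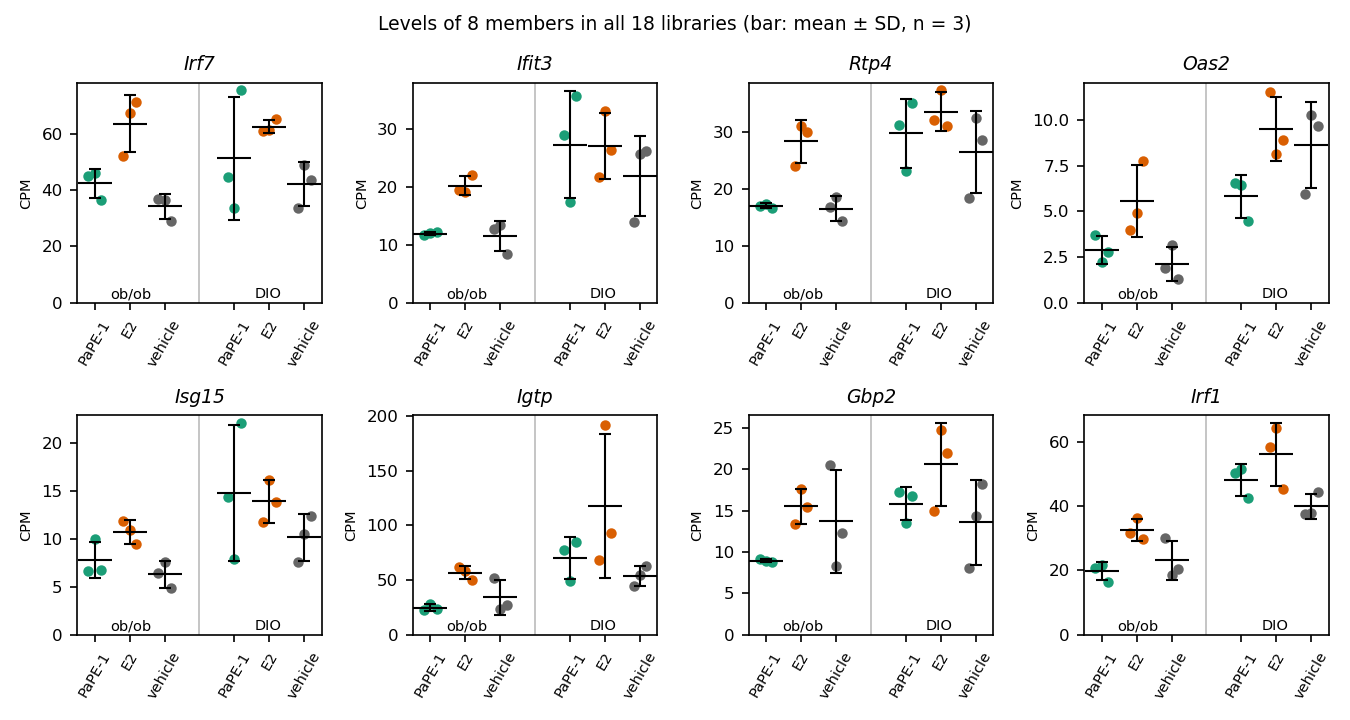
Levels of 8 members in all 18 libraries (y axis, CPM from 0), with points for libraries and bars for the mean ± SD of 3. The ob/ob E2 libraries of Irf7, Ifit3, Rtp4, Oas2 and Isg15 lie above those with vehicle, and 1 vehicle library each of Igtp (52.2 CPM) and Gbp2 (20.5 CPM) lies in or above the E2 range.

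In DIO liver no member passed the edgeR test in any comparison. For E2 against vehicle, 0 of 43 passed (edgeR; DESeq2 and limma voom also 0), as did 0% of all genes in the higher and 0% in the lower direction. At an unadjusted p under 0.05, 9 members were higher and 0 lower, that is 20.9%, against 2.72% of all genes higher and 2.5% lower. This count rested on single libraries, with 2 higher and 1 lower without vehicle replicate 1 and 4 higher without E2 replicate 2. The groups did not overlap, with E2 higher, for 11 members (25.6%), against 4.54% of all genes. The median was 0.33, with 0.30 for the antiviral class and 0.57 for the GTPases, 5 of 8 of which were among the 9. Irf1 measured 58.4, 64.4 and 45.4 CPM with E2 and 37.6, 38.0 and 44.4 CPM with vehicle, a log2 difference of 0.49 (95% interval 0.16 to 0.82, edgeR unadjusted p = 0.00711, adjusted p = 0.838). Gbp3 measured 27.1, 46.9 and 32.3 CPM with E2 and 17.5, 23.9 and 24.3 CPM with vehicle, at 0.69 (edgeR adjusted p = 0.879). Irgm1, a regulator of autophagy among the GTPases, measured 99.0, 125 and 95.04 CPM with E2 and 60.3, 76.8 and 81.5 CPM with vehicle, at 0.55 (edgeR adjusted p = 0.879). Igtp measured 67.9, 192 and 93.3 CPM with E2 and 44.4, 54.1 and 62.8 CPM with vehicle, at 1.13 (edgeR adjusted p = 0.879). In these 4 genes every E2 library exceeded every vehicle library, and E2 replicate 2 was the highest. Irf7 measured 61.1, 61.4 and 65.3 CPM with E2 and 33.6, 49.0 and 43.6 CPM with vehicle, at 0.57 (edgeR adjusted p = 0.937). The antiviral genes Isg15 and Ifit1 overlapped, with 11.7, 16.1 and 13.9 CPM and 19.5, 15.7 and 21.9 CPM with E2, against 7.56, 10.5 and 12.4 CPM and 6.46, 17.3 and 15.7 CPM with vehicle. The 95% interval lay within a 2-fold change for 25 of 43 members.

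PaPE-1 against vehicle in DIO liver called 0 members (edgeR, DESeq2 and limma voom) and, by edgeR, 0% of all genes higher and 0% lower. Without adjustment, at p under 0.05, 2 members were higher (4.65%) and 4 lower (9.30%), against 11.4% and 9.68% of all genes, so both shares lay below the background. Without PaPE-1 replicate 3 or without vehicle replicate 1 they numbered 0 and 6. The median was 0.01, and -0.19 and -0.17 without these libraries. Dtx3l, the ubiquitin ligase that partners PARP9, measured 48.7, 57.9 and 57.3 CPM with PaPE-1 and 68.3, 80.2 and 81.5 CPM with vehicle, a log2 difference of -0.49 (edgeR adjusted p = 0.126). Stat2 measured 49.7, 41.5 and 37.3 CPM with PaPE-1 and 51.0, 62.0 and 64.8 CPM with vehicle, at -0.47 (edgeR adjusted p = 0.129). Ifih1 measured 34.4, 34.7 and 37.0 CPM with PaPE-1 and 42.2, 44.1 and 43.2 CPM with vehicle, at -0.29, and Ifi35 measured 34.9, 26.6 and 39.8 CPM with PaPE-1 and 21.8, 25.8 and 26.0 CPM with vehicle, at 0.46. These 4 genes were picked by small unadjusted p, so the lack of overlap between their groups carries no weight of its own. None of them passed the adjusted test. The antiviral scores of single PaPE-1 libraries spread from -0.38 to 0.33, as wide as those with vehicle (-0.40 to 0.22). Irf7 shows that spread, at 44.5, 33.5 and 75.7 CPM with PaPE-1.

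With PaPE-1 set against E2 in DIO liver, 0 members passed by edgeR and limma voom, against 0.0144% of all genes lower and 0.0216% higher by edgeR. DESeq2 called 2 lower, Stat2 (adjusted p = 0.00385) and Gbp7 (adjusted p = 0.0406), beside 112 of all 13884 genes. At an unadjusted p under 0.05, 12 members were lower (27.9%) and 0 higher, against 8.62% and 8.41% of all genes, and 10 did not overlap with PaPE-1 lower (23.3%), against 8.27% of all genes. Of the unadjusted calls, 6 were left without PaPE-1 replicate 2 and 8 without PaPE-1 replicate 1, E2 replicate 1 or E2 replicate 2, while 17 were found without PaPE-1 replicate 3. Stat2, at 77.7, 61.6 and 77.2 CPM with E2, had a log2 difference of -0.75 (95% interval -1.09 to -0.42, edgeR unadjusted p = 0.000344, adjusted p = 0.162), and passed at an edgeR adjusted p of 0.0179 without E2 replicate 2. Gbp7 measured 16.3, 17.5 and 24.9 CPM with PaPE-1 and 40.1, 34.5 and 26.8 CPM with E2, at -0.79 (edgeR adjusted p = 0.175). Gbp3 measured 19.2, 17.0 and 27.8 CPM with PaPE-1, at -0.74, and overlapped E2. Oas2 measured 6.57, 6.47 and 4.46 CPM with PaPE-1 and 11.5, 8.16 and 8.89 CPM with E2, at -0.70 (edgeR adjusted p = 0.202).

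Whether a ligand acted differently in the models was tested as the difference of its effects, ob/ob minus DIO, over all 18 libraries. No member passed for PaPE-1, against 0% of all 14171 genes, nor for E2, against 0.0141% (edgeR; DESeq2 and limma voom also 0). At an unadjusted p under 0.05, 2 members were above (4.65%) and 1 below 0 (2.33%) for PaPE-1, against 4.84% and 7.29% of all genes. For E2 4 were above (9.30%) and 0 below, against 6.94% and 9.96% of all genes, and the number above ran from 1 (without DIO vehicle replicate 2 or ob/ob E2 replicate 3) to 8 (without DIO vehicle replicate 1). The lowest p for E2 was that of Oas2, whose log2 fold change was 1.43 in ob/ob and 0.14 in DIO liver, a difference of 1.28 ± 0.43 (SE, edgeR unadjusted p = 0.00726, adjusted p = 0.155). For PaPE-1 it was that of Dtx3l, at 0.07 in ob/ob and -0.49 in DIO liver, a difference of 0.55 ± 0.21 (edgeR unadjusted p = 0.0160, adjusted p = 0.312). The calls in ob/ob liver beside none in DIO liver therefore do not show that the models differed. Without DIO E2 replicate 2, Tap1 passed for E2 (edgeR adjusted p = 0.0419).

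The rest of the pathway moved in parts. Interferon transcripts themselves were hardly seen: of 21 ligand genes none could be tested, 4 had any count, and no library held more than 5 counts of one, so their change was not detectable at this depth. Of the receptors and their kinases, 1 of 11 rose with E2 in ob/ob liver (9.09%), a share near the 9.81% of all genes. It was the type I receptor chain Ifnar2 (log2 fold change 0.31, edgeR adjusted p = 0.0393). Of the upstream sensors and adaptors 4 of 17 rose (23.5%), namely Irf3, the factor that first switches on interferon genes (0.85, edgeR adjusted p = 0.00203), Adar (0.41), Sting1 (0.82) and Irf8 (0.64). Of other interferon-stimulated genes 20 of 45 rose (44.4%) and 1 fell, led by Ifitm3, which blocks viral entry (1.02, edgeR adjusted p = 0.00107), with Apol9b, Apol9a and Trim34a next. Of other interferon-gamma induced genes 9 of 28 rose (32.1%), among them the immunoproteasome subunits Psmb8 (0.75) and Psmb10 (0.68), the class I molecule H2-T23 (0.59) and the chemokine Cxcl11 (1.15). With PaPE-1 set against E2 in ob/ob liver, 0 of 11, 4 of 17, 17 of 45 and 12 of 28 genes of these lists were lower, against 7.45% of all genes, including Irf3 (-0.69), Ifitm3 (-0.90), Psmb8 (-0.79) and Gbp4 (-1.46). None of these genes was called for PaPE-1 against vehicle in ob/ob liver or in any DIO comparison.

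Markers of liver cell types moved in the same comparison. In bulk tissue a change in the number of cells of a type and a change in RNA per cell cannot be told apart. Hepatocyte markers held 92140 to 174300 summed CPM in the ob/ob libraries. With E2 in ob/ob liver, where 9.81% of all genes were higher, 8 of 12 Kupffer cell markers were higher, at 687 to 959 summed CPM, against 438 to 555 with vehicle. The same held for 14 of 16 endothelial markers (543 to 677 summed CPM with E2 and 336 to 369 with vehicle) and for 9 of 11 tested neutrophil markers (152 to 464 with E2 and 73.9 to 199 with vehicle). Of T and NK cell markers, 1 of 7 tested was higher (10.5 to 16.5 summed CPM with E2 and 5.41 to 15.1 with vehicle), of B and plasma cell markers 3 of 5 tested (7.33 to 12.4 with E2 and 1.57 to 5.32 with vehicle), and of plasmacytoid dendritic cell markers 0 of 3 tested. Hepatocyte markers rose too, 7 of 9, with 1 lower. In other lists few or no markers passed: of 10 markers of recruited and lipid-associated macrophages 1 was higher and 1 lower (median -0.57, with 243 to 284 summed CPM with E2 and 276 to 869 with vehicle), and of 8 stellate, 5 cholangiocyte and 5 tested erythroid markers none was called. No defining marker of these lists was at 0 in all libraries of an ob/ob group. With PaPE-1 against E2 in ob/ob liver, 7 of 12 Kupffer, 15 of 16 endothelial and 6 of 9 hepatocyte markers were lower. In DIO liver the Kupffer markers summed to 804 to 1049 CPM with E2 and 526 to 708 CPM with vehicle. There 10 of 12 were higher at an unadjusted p under 0.05, against 2.72% of all genes, and none passed. In DIO liver Ly6g was at 0 in the E2 and vehicle groups, Mpo in the PaPE-1 group and Cox6a2 in the vehicle group. The part of these cells in the members' levels was not tested.

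**Figure D5:**
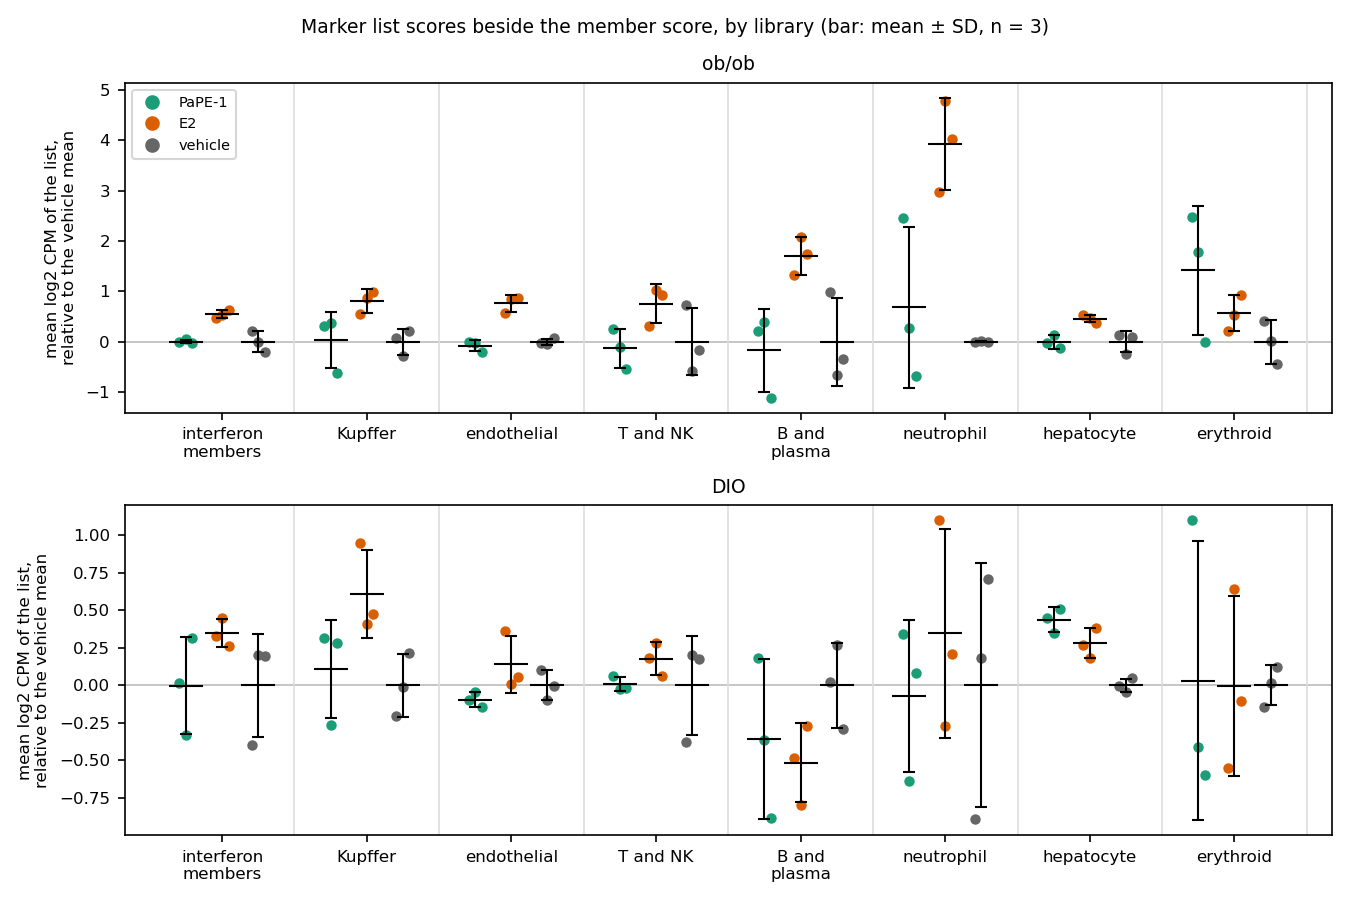
Scores of cell marker lists beside the score of the 43 members, by library (y axis, mean log2 CPM relative to the vehicle mean; points are libraries, bars the mean ± SD of 3). The ob/ob Kupffer scores with E2 (0.55 to 0.999) and the endothelial scores with E2 (0.57 to 0.87) lie above those with vehicle, as the member scores do (0.47 to 0.63).

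Within groups, GTPase pairs had the highest median correlation, while antiviral pairs did not exceed pairs between the classes in DIO liver. With the group means taken out, the median correlation of log2 CPM over 18 libraries was 0.739 for the 28 GTPase pairs, 0.386 for the 528 antiviral pairs and 0.347 between the classes. In ob/ob liver alone (9 libraries) these medians were 0.742, 0.206 and 0.0925, and in DIO liver 0.745, 0.514 and 0.577. The genes share libraries and depth, so these are descriptions. Zbp1, placed with the antiviral members, had r = 0.850 with the GTPases and 0.651 with the other antiviral members, and Irf1 had 0.586 and 0.009. Of 12877 other genes, those most like the mean of the 43 members were Trim12c (r = 0.891), Pak1 (0.878), Zfp386 (0.871) and Neu1 (0.837), over 18 libraries. Between groups they did not follow the members as one: with E2 in ob/ob liver Trim12c rose by 0.56 and Pak1 fell by 0.53 on the log2 scale (edgeR adjusted p = 0.0222 and 0.0233).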

How the data were processed

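RNA from 18 livers was sequenced, per the labels, for 101 cycles at both ends, while the study's methods speak of single-end reads and the count columns are named after first-read files. A count therefore stands for 1 read, and whether second reads were also counted is not given in the sources used here. Per the submitters' processing notes, CASAVA 1.8.2 and STAR 2.7.6a were used, and per the file headers the authors made the deposited counts with featureCounts 2.0.0 on the RefSeq annotation of GRCm39, with strand setting 2, without multi-mapped reads and without pairing reads into fragments. The authors' own comparison tables, which hold fold changes and p-values, were not used.

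The members, gene lists and cell markers were chosen with earlier results of these data known. In each model, genes were kept by filterByExpr, counts were scaled by TMM, and groups were compared with the robust quasi-likelihood test of edgeR 4.0.16 in R 4.3.3 over 9 libraries, with Benjamini-Hochberg adjustment over all genes tested and a threshold of 0.05. Differences between models were interaction terms over 18 libraries. Scores are means of log2 CPM with a prior count of 2. The total counts of a library set the precision of each value, and intervals cover the spread between libraries. Given in every library were the up to 8 called members of smallest p per comparison (up to 4 by unadjusted p where none was called), the 3 of highest level per length, and Irf7, Irf1, Isg15, Ifit1, Gbp2 and Igtp, and of each other pathway list up to 4 genes by p; 1 further gene is not reported here. Transcript windows of 100 bases were compared between genes, and promoter windows came from RefSeq. Alternatives were DESeq2 1.42.0, limma 3.58.1 (voom), DESeq2 size factors, no filter or a mean of at least 1 CPM, a fit of only the compared groups, removal of each library's trend on gene length, and each library left out. The scripts were tested on simulated data. Figures were drawn with matplotlib 3.10.9. Columns not mapped to a sample numbered 0.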

Additional observations from a re-analysis of the deposited data

How the results depend on the processing

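The medians of the members for E2 against vehicle and for PaPE-1 against E2 kept their sign in both models under all alternatives. Those for PaPE-1 against vehicle, 0.01 in both models, lay near 0 and changed sign with single libraries left out, running from -0.19 to 0.13 in DIO liver and from -0.11 to 0.11 in ob/ob liver. The median log2 difference of the members for PaPE-1 against E2 in ob/ob liver, -0.52 as reported, was -0.45 with the length trend removed and ran from -0.64 to -0.50 with single libraries left out. With single libraries left out, the members higher with E2 than with vehicle in ob/ob liver numbered 6 to 25 and those lower 0 to 1, and the members lower with PaPE-1 than with E2 numbered 6 to 20 and those higher 0 to 1. With the length trend removed, 15 members were called in each of these comparisons, 14 of them also called without that step. Of all 13433 genes, 1008 were then higher with E2 than with vehicle, and 733 lower with PaPE-1 than with E2. In DIO liver the members lower with PaPE-1 than with E2 numbered 2 by DESeq2, 1 without a filter on low counts (Stat2) and 0 to 1 with single libraries left out. Members whose E2 effect differed between models numbered 0 to 1 in the same way. The causes were not tested.

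Of 70 values of 26 named genes followed through the alternatives, 11 changes of sign were seen, none of them in a called value; the other members were not followed in this way. Ranges are those with single libraries left out. In ob/ob liver, Gbp2 ran from -0.079 (without vehicle replicate 2) to 0.58 for E2 against vehicle, and for PaPE-1 against vehicle Irf1 ran from -0.37 to 0.00063 (without vehicle replicate 1). For PaPE-1 against vehicle in DIO liver, Gbp2 ran from -0.044 (without vehicle replicate 1) to 0.49, Ifit1 from -0.39 (without PaPE-1 replicate 3) to 0.59, with -0.10 without vehicle replicate 1, and Irf7 from -0.11 (without PaPE-1 replicate 3) to 0.51. For PaPE-1 against E2 in DIO liver, Ifit1 ran from -0.93 to 0.051 (without PaPE-1 replicate 2) and Isg15 from -0.33 (without PaPE-1 replicate 3) to 0.39, with -0.035 without E2 replicate 1, -0.056 by limma voom and -0.22 with the length trend removed.

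Counts over all genes moved by more than 1.5 times in both models. In ob/ob liver, E2 against vehicle called 1318 genes higher and 1654 lower. These were 344 and 434 without E2 replicate 2, and 634 and 812 without E2 replicate 3. PaPE-1 against E2 called 1343 higher and 1001 lower there, and 292 and 199 without E2 replicate 2. In DIO liver, PaPE-1 against vehicle called 0 genes by edgeR and voom, and 524 higher and 228 lower by DESeq2. It called 250 and 135 without a filter, and 467 and 306 with only the compared groups in the fit. E2 against vehicle called 19 higher and 5 lower by DESeq2, and PaPE-1 against E2 126 and 112, beside 3 and 2 by edgeR. The difference of the E2 effects called 119 above and 215 below by DESeq2, beside 1 and 1 by edgeR. No paired analysis was possible because the labels give no replicate numbers that the groups share. With 3 libraries per group and 7 to 33 counts of Oas1g per ob/ob library, small differences of low members were not detectable at this depth.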
